A study of Mus musculus with 36 samples.

Results

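The 33 genes described here encode lysosomal hydrolases, lysosomal membrane proteins, cholesterol and lipid transporters and TFEB, the transcription factor of the lysosomal gene programme. They were taken by name from the 24940 genes of the count table, and all 33 were found. By role they divide into 8 membrane proteins and receptors, 3 genes of cholesterol and lipid handling, 9 of sphingolipid degradation, 6 of glycosaminoglycan degradation, 3 of glycogen and glycoprotein degradation, 3 of protein degradation, palmitate removal and progranulin, and 1 transcription factor. The study measured poly(A) RNA of male mice in 36 libraries: 12 of cortex, 9 of corpus callosum, 9 of striatum and 6 of sorted microglia. MBP29-hα-syn mice, called MSA mice here, carry human α-synuclein under the myelin basic protein promoter and serve as a model of multiple system atrophy, so the transgene is driven in oligodendrocytes. The tissue controls are labelled CTRL, and the protocol names them wild type (WT). Tissue came from control and MSA mice fed from 4 weeks of age for 12 weeks with chow holding PLX5622 at 1200 mg/kg, an inhibitor of the CSF1 receptor on which microglia depend for survival, or with AIN-76A chow without the drug, called placebo here. The cortex has 3 libraries in each of its 4 groups. The corpus callosum has 3 control placebo libraries and 2 in each other group. The striatum has 3 MSA placebo libraries and 2 in each other group. Microglia were sorted from forebrains of 16-week-old mice as CD11b+CD45low cells with no diet arm, 3 libraries from mice labelled MBP29 het, which are the controls, and 3 from mice labelled MBP29 homo, the MSA group. The protocol describes WT mice beside the MSA mice for this sort, so whether these controls carry 1 transgene copy cannot be told from the labels.

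The lysosome is the acidic organelle in which cells break down material taken up from outside and parts of themselves. Soluble hydrolases each cut 1 kind of bond in lipids, glycans or proteins, LAMP proteins coat the inside of the membrane, and transporters carry the products out. TFEB and its relatives bind the E-box-like letters CACGTG in many lysosomal promoters. Every cell of the brain has lysosomes, and microglia, the phagocytes of the tissue, are rich in them. Inherited loss of many of these enzymes causes storage diseases of the brain.

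Counts assigned to genes ran from 4360339 to 28622744 per tissue library and from 5951129 to 12110865 per microglia library. In 6 tissue libraries under 70% of the total given in the table's header was assigned to genes, as against up to 84.5% elsewhere: placebo 3 and PLX5622 1 of control cortex, placebo 3 and PLX5622 2 of control corpus callosum, PLX5622 1 of the MSA corpus callosum, and PLX5622 2 of the MSA striatum. Some results are given with and without them. Leaving them out leaves 1 PLX5622 library each in control corpus callosum, MSA corpus callosum and MSA striatum. Leaving out 1 library of a group of 2 likewise leaves 1 there, and the spread then comes from other groups. The summed level of 16 microglial marker genes was 506 to 973 counts per 1000000 assigned counts (CPM) in the placebo tissue libraries, 17.6 to 63.1 CPM in control PLX5622 tissue, 147 to 276 CPM in MSA PLX5622 tissue and 53550 to 58364 CPM in sorted microglia. The 2 control striatum PLX5622 libraries carry PLX in their titles and "No treatment" in a second label. They were grouped by title, and their microglial markers stood at 23.6 and 39.0 CPM, against 506 and 511 CPM in control striatum placebo. No label ties libraries to animals, so the spread behind each p-value is that of the libraries as deposited, which may be technical, and libraries of different regions may come from the same mice.

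In reference promoters of 300 bases (250 before the start of transcription and 50 after it, RefSeq, GRCm38.p6), 31 of the 33 genes were matched. The letters CACGTG, which read the same on both strands, lay in 8 of these 31 genes (25.8%), against 9.12% of the 18104 genes of the count table with such a promoter. The 8 were Arsa, Gaa, Gla, Glb1, Lamp1, Mcoln1, Naglu and Sgsh. The longer form TCACGTGA, which holds CACGTG inside it, lay in Gla and Mcoln1 (6.45% of 31, against 1.45%). By promoter window, of which some genes have several, CACGTG lay in 23.5% of 34 member windows and 8.04% of all 21765. A match describes letters in these windows and no binding was measured. The 250 bases before the start are printed for Laptm5 and Cd68, the members that fell with the drug in both genotypes on the mean of the regions, and for Lamp1, Mcoln1 and Gla, the members with more than 1 match. CACGTG is in capitals.
Laptm5, chr4:130913066-130913315, plus strand, and Cd68, chr11:69666171-69666420, minus strand, hold no match.
Laptm5: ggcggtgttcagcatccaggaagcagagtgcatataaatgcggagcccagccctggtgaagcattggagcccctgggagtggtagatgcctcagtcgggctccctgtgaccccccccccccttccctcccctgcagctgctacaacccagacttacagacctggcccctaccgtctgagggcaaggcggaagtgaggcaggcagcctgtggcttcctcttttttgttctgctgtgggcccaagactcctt
Cd68: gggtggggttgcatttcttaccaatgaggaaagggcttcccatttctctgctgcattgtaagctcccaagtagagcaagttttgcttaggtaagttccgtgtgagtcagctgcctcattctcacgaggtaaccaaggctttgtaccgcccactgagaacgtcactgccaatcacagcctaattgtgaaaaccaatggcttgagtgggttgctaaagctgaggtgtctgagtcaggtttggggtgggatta
Lamp1, chr8:13158911-13159160, plus strand, holds 4 matches, which begin 61, 45, 28 and 15 bases before the start.
Lamp1: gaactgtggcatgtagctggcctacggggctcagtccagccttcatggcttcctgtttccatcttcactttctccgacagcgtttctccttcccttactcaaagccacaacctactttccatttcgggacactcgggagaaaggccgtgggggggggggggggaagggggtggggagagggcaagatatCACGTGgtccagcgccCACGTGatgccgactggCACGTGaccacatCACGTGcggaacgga
Mcoln1, chr8:3500269-3500518, plus strand, holds 2, which begin 71 and 45 bases before the start.
Mcoln1: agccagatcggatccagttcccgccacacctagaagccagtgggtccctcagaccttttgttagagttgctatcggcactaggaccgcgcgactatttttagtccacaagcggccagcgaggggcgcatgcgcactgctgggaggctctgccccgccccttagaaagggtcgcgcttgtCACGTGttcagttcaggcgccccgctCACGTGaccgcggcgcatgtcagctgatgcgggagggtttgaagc
Gla, chrX:134601006-134601255, minus strand, holds 2, which begin 227 and 194 bases before the start.
Gla: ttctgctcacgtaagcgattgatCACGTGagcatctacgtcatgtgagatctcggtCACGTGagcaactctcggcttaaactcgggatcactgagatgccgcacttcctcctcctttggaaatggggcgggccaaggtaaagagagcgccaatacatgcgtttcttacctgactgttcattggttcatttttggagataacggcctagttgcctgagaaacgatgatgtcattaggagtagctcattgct

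Per transcript length, the lysosomal genes of whole tissue were led by Psap, the precursor of the saposins that help hydrolases reach sphingolipids. In control cortex on placebo the levels were 533 ± 277 TPM (transcripts per 1000000, SD, n = 3) for Psap, 276 ± 61.1 for Ids (iduronate-2-sulfatase), 183 ± 40.8 for Lamp1, 133 ± 53.3 for Laptm4a and 106 ± 81.7 for Gaa (acid α-glucosidase). Each overlapped its neighbour in this order within 1 SD. The lowest were Gla at 5.72 ± 0.75, Tfeb at 4.17 ± 1.97 and Sgsh (heparan N-sulfatase) at 3.28 ± 1.65 TPM. Psap also led in control corpus callosum (416 ± 132 TPM, n = 3) and control striatum (599 ± 79.8 TPM, n = 2), and Sgsh was lowest in both.

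Sorted control microglia had another order. Laptm5, a lysosomal membrane protein of hematopoietic cells, led at 2813 ± 72.4 TPM (SD, n = 3), followed by Psap at 2214 ± 66.7, Grn (progranulin) at 1324 ± 32.5, Arsb (arylsulfatase B) at 882 ± 231, Lamp1 at 820 ± 23.9, Cd68 (macrosialin, a LAMP relative of macrophages) at 756 ± 46.3 and Hexa (hexosaminidase α subunit) at 754 ± 43.2 TPM. Arsb, Lamp1, Cd68 and Hexa overlapped within their SDs. Gla (α-galactosidase A) was last at 2.81 ± 0.77 TPM. The 33 genes together took 22859 to 24435 CPM in control microglia and 3997 to 4407 CPM in control cortex on placebo.

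Against placebo control cortex, 28 of the 33 genes were higher in sorted control microglia and 2 were lower (edgeR quasi-likelihood test, adjusted p under 0.05 over 14318 genes). This contrast of sorted cells with frozen tissue calls 70.8% of all genes, and cell type and preparation cannot be told apart in it. The median log2 difference of the 33 was 2.69, against -0.15 for all genes. The highest were Laptm5 (log2 difference 6.98 ± 0.43 SE, adjusted p = 1.54e-05), Cd68 (6.46 ± 0.26, 5.53e-06), Man2b1, the lysosomal α-mannosidase (5.71 ± 0.47, 4.76e-05), Grn (5.66 ± 0.59, 0.000129), Arsb (4.65 ± 0.60, 0.000368), Gusb, β-glucuronidase (4.42 ± 0.24, 9.37e-06) and Hexa (4.25 ± 0.23, 8.73e-06). Ids was lower by 2.39 ± 0.27 on the log2 scale, at 180 to 183 CPM in microglia and 761 to 1523 CPM in cortex. Gla was 2.00-fold lower. Gaa, Smpd1 (acid sphingomyelinase) and the cation channel Mcoln1 did not pass. The Gla call was lost without control microglia 1 (adjusted p = 0.128) or 3 (0.107). The calls of Cd63, Neu1 (sialidase 1) and Laptm4a were also lost without single libraries, at adjusted p between 0.054 and 0.104: Cd63 without control cortex 1 or 2 or any of the 3 control microglia libraries, Neu1 without those same 5, and Laptm4a without control cortex 2 or control microglia 3. The Neu1 call was also lost with RLE size factors and with no low-count filter, and was kept in 2 of 9 alternative settings. By role, 7 of the 8 membrane genes, all 3 lipid genes and 5 of the 6 glycosaminoglycan genes were higher.

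The membrane protein Laptm5 was the 1 member of 33 past the edgeR threshold under PLX5622 in single regions. Alternative settings called further members in some regions, as given at the end. In control cortex Laptm5 stood at 46.9, 48.3 and 25.3 CPM on placebo and at 0.459, 0.148 and 0.872 CPM on PLX5622, which are 2, 1 and 6 counts. In control corpus callosum the values were 58.7, 48.4 and 32.6 CPM on placebo and 2.43 and 0.584 CPM on PLX5622. Control striatum had 44.9 and 51.3 CPM on placebo and 0.730 and 0.425 CPM on PLX5622. Every PLX5622 library lay below the lowest placebo library of its region. Laptm5 fell by 6.26 ± 0.51 (log2, SE) in control cortex, which is 76.8-fold (adjusted p = 1.84e-05), by 4.84 ± 0.59 in corpus callosum (adjusted p = 0.00493) and by 6.31 ± 0.34 in striatum (adjusted p = 3.14e-06). It was the 1 member called of 33 in each of these comparisons, which call 0.486%, 0.46% and 0.336% of all genes tested. These are 71 genes in cortex, 73 in corpus callosum and 50 in striatum. In whole tissue, fewer cells of a type and less RNA per cell cannot be told apart.

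The same gene kept higher levels under the drug in MSA mice. MSA cortex had 45.0, 73.4 and 79.5 CPM on placebo and 12.4, 9.84 and 15.3 CPM on PLX5622. MSA corpus callosum had 86.2 and 85.5 CPM on placebo and 8.10 and 17.2 CPM on PLX5622, and MSA striatum had 71.5, 61.4 and 67.0 CPM on placebo and 10.4 and 14.8 CPM on PLX5622. The groups did not overlap in any region, and each MSA library on the drug lay above every control library on the drug. Laptm5 fell by 2.44 ± 0.37 (log2) in MSA cortex (adjusted p = 0.0269) and by 2.37 ± 0.24 in MSA striatum (adjusted p = 0.00355), as the 1 member called, where 0.0548% and 0.074% of all genes are called. In MSA corpus callosum, where 0.0693% of all genes are called, its log2 change was -2.87 ± 0.52 with an adjusted p of 0.101. There edgeR called 0 members and DESeq2 called 2, Laptm5 and Man2b1. At an unadjusted edgeR p under 0.05 were 9 members and 8.48% of all genes. Without the libraries of low assigned share 1 PLX5622 library is left in MSA corpus callosum, so no call is given for that setting. The MSA cortex call held without MSA placebo 1 only. Without any 1 of the other 5 libraries (MSA placebo 2 or 3, MSA PLX5622 1, 2 or 3) the adjusted p lay between 0.083 and 0.307. The MSA striatum call was lost without MSA PLX5622 2, a library of low assigned share (log2 change -2.15, adjusted p = 0.124), and without MSA PLX5622 3 (-2.64, 0.0864).

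The difference between the genotypes in the drug's effect was tested as an interaction. For Laptm5 it was 3.82 ± 0.63 (log2) in cortex (adjusted p = 0.0352) and 3.94 ± 0.41 in striatum (adjusted p = 0.00428), and Laptm5 was the 1 member called in each, where 0.0959% and 0.0874% of all genes are called. In corpus callosum the interaction was 1.97 ± 0.73 with an adjusted p of 0.933. There edgeR called 0 members, where 0.264% of all genes are called, and DESeq2 called 0. At an unadjusted edgeR p under 0.05 were 2 members and 4.7% of all genes. Without the libraries of low assigned share 1 PLX5622 library is left in each genotype there, so no call is given for that setting. In cortex the call was lost, at adjusted p between 0.0512 and 0.134, without any 1 of 9 libraries: control placebo 1 or 2, control PLX5622 1 or 2, MSA placebo 1, 2 or 3, and MSA PLX5622 1 or 3. In striatum it was kept without any 1 of the 3 MSA placebo libraries. Leaving out a library of another striatum group leaves 1 there, so no call is given for those. Over all alternatives the striatum interaction lay between 3.63 and 4.34. On the mean of the 3 regions the interaction was 3.25 ± 0.39 (adjusted p = 1.66e-05), Laptm5 was the 1 member called where 0.361% of all genes are called, and it was kept without each of the 30 libraries in turn. If regions share mice, p-values on the mean of the regions are too small. The microglial markers moved with it: their sum in PLX5622 tissue was 17.6 to 63.1 CPM in controls and 147 to 276 CPM in MSA mice. Of the 16 markers, up to 11 were at 0 in a control PLX5622 library and none was at 0 in MSA PLX5622 libraries. Their part in the result was not tested.

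**Figure D1:**
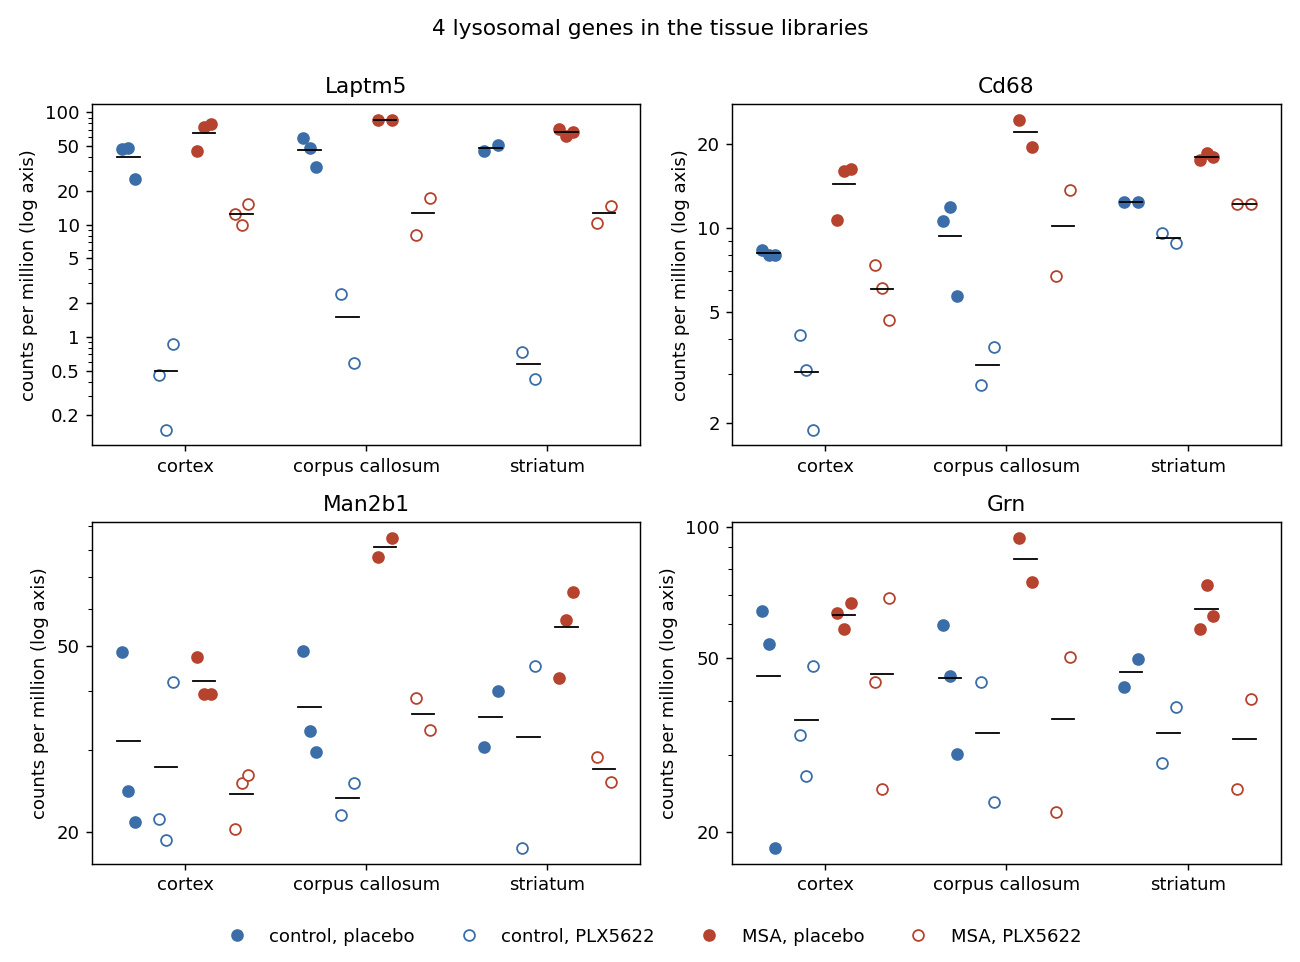
CPM (log axis) of Laptm5, Cd68, Man2b1 and Grn in each tissue library by region, genotype (blue control, red MSA) and diet (filled placebo, open PLX5622), with bars at group means. Laptm5 is at 0.148 to 2.43 CPM in control PLX5622 libraries and at 8.10 to 17.2 CPM in MSA PLX5622 libraries.

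The macrophage protein Cd68 was the second member lower in both genotypes. Control cortex had 8.38, 8.03 and 8.01 CPM on placebo and 4.13, 3.11 and 1.89 CPM on PLX5622. Control corpus callosum had 10.6, 11.9 and 5.70 CPM on placebo and 2.74 and 3.73 CPM on PLX5622, and control striatum had 12.4 and 12.4 CPM on placebo and 9.60 and 8.83 CPM on PLX5622. The diets did not overlap in any control region. MSA cortex had 10.7, 16.0 and 16.3 CPM on placebo and 7.36, 6.08 and 4.70 CPM on PLX5622. MSA corpus callosum had 24.5 and 19.6 CPM on placebo and 6.73 and 13.6 CPM on PLX5622, and MSA striatum had 17.6, 18.6 and 18.0 CPM on placebo and 12.2 and 12.2 CPM on PLX5622. The diets did not overlap in any MSA region either. Such separation was not particular to Cd68. In control cortex, corpus callosum and striatum, 4, 4 and 11 of the 33 members were apart and lower on PLX5622. In MSA mice the counts were 7, 15 and 12. Apart and higher were 0, 1 and 2 in controls and 2, 2 and 0 in MSA mice. The share over all genes was not counted. For Cd68 no single region passed the threshold, with adjusted p of 0.174 in control cortex and 0.568 in MSA cortex. On the mean of the 3 regions Cd68 fell by 1.12 ± 0.21 (log2) in controls (adjusted p = 0.00191) and by 1.02 ± 0.20 in MSA mice (adjusted p = 0.00689), and both calls were kept without each of the 15 libraries in turn. The interaction of Cd68 was 0.09 ± 0.28 with an adjusted p of 0.897.

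On the mean of the 3 regions, 2 of the 33 genes were called in controls, Laptm5 (fell by 5.81 ± 0.33, adjusted p = 5.74e-12) and Cd68, where 1.38% of all genes are called. In MSA mice 5 of 33 were called, all lower, where 2.31% of all genes are called. These p-values too are too small if regions share mice. The 5 were Laptm5 (fell by 2.56 ± 0.25, adjusted p = 6.59e-07), Man2b1 (fell by 1.05 ± 0.22, adjusted p = 0.0102), Cd68, Glb1, the acid β-galactosidase (fell by 0.83 ± 0.20, adjusted p = 0.0257), and Naglu, which removes N-acetylglucosamine from heparan sulfate (fell by 0.70 ± 0.17, adjusted p = 0.0298). The median log2 change of all 33 was -0.31 in MSA mice with 24 of 33 below 0, and -0.08 in controls with 21 of 33 below 0, beside -0.02 and 0.02 over all genes. The MSA libraries of low assigned share were all on PLX5622, 1 in corpus callosum and 1 in striatum. Gaa, Psap, Grn and Arsb lay below the mean of their group's other libraries in 6 of 6 libraries of low assigned share. The MSA median without such libraries is not given, because 1 PLX5622 library would be left in each of these 2 regions. Of the members not called, 7 of 28 in MSA mice and 17 of 31 in controls changed sign under at least 1 alternative, so the directions of small changes are loose. Choroid plexus markers moved with the drug in MSA mice as well. Their 10 genes had a median log2 change of -2.06 on the mean of the regions with 1 called lower, and of -3.56 in MSA corpus callosum with 5 called lower, where their sum went from 3218 and 8293 CPM on placebo to 412 and 466 CPM. In MSA cortex it was 43.8 to 257 CPM on placebo and 58.7 to 137 CPM on PLX5622, and in MSA striatum 68.6 to 3939 and 43.1 to 531 CPM. The part of these markers in the MSA calls was not tested.

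**Figure D2:**
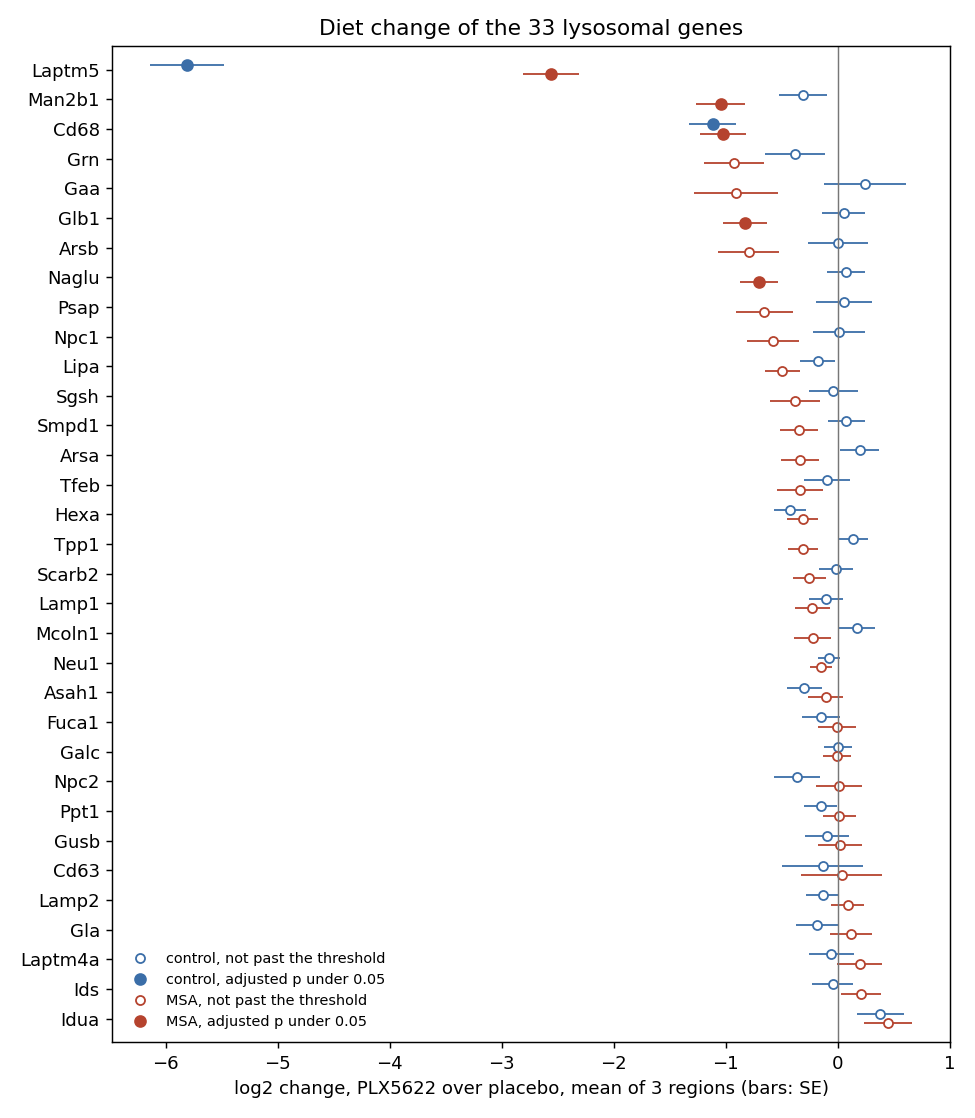
Log2 change under PLX5622 of each of the 33 genes on the mean of 3 regions, in control (blue) and MSA (red) mice, with SE bars; filled points passed an adjusted p of 0.05. Laptm5 stands apart in both, at -5.81 and -2.56, and most other points lie within 1 log2 unit of 0.

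Among the other membrane proteins and receptors no drug effect passed. Lamp1, a main glycoprotein of the lysosomal membrane, had log2 changes of -0.10 ± 0.15 in controls and -0.23 ± 0.15 in MSA mice on the mean of the regions. In cortex its values were 300, 339 and 271 CPM in controls on placebo and 229, 347 and 257 CPM on PLX5622, so the groups overlapped. Lamp2, its partner that also serves chaperone-mediated autophagy, had -0.13 ± 0.15 and 0.09 ± 0.15. The sorting protein Laptm4a had -0.06 ± 0.20 and 0.19 ± 0.20, the tetraspanin Cd63 -0.13 ± 0.36 and 0.04 ± 0.36, the glucocerebrosidase receptor Scarb2 -0.01 ± 0.15 and -0.25 ± 0.15, and Mcoln1 0.17 ± 0.16 and -0.22 ± 0.17. Cd63 varied between libraries of a group, from 12.4 to 44.2 CPM in control cortex on placebo.

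The gene of glycoprotein breakdown Man2b1 was apart between diets in all 3 MSA regions. It was among 7 members apart and lower in MSA cortex, 15 in corpus callosum and 12 in striatum. The share over all genes was not counted. Man2b1 had 47.2, 39.5 and 39.4 CPM in MSA cortex on placebo and 20.3, 25.4 and 26.5 CPM on PLX5622. The values were 77.4 and 85.1 against 38.6 and 32.97 CPM in MSA corpus callosum, and 42.6, 56.8 and 65.2 against 29.0 and 25.5 CPM in MSA striatum. In controls the diets overlapped in cortex (48.6, 24.5 and 21.0 CPM on placebo, 21.3, 19.3 and 41.9 CPM on PLX5622) and striatum (30.4 and 40.0, then 18.5 and 45.2 CPM). They did not overlap in control corpus callosum (48.7, 32.8 and 29.6 CPM on placebo, 21.7 and 25.4 CPM on PLX5622). The MSA call was kept without each of the 15 libraries in turn. The control change was -0.31 ± 0.21 (adjusted p = 1), and the interaction, -0.74 ± 0.30, had an adjusted p of 0.344, so the genotypes were not shown to differ. Of the other 2 genes of this role, Gaa had -0.91 ± 0.37 in MSA mice (adjusted p = 0.184) and Fuca1 (α-fucosidase) -0.01 ± 0.17.

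The calls of Glb1 and Naglu rested on fewer libraries. Glb1 had 24.6, 25.9 and 25.6 CPM in MSA cortex on placebo and 19.0, 15.0 and 21.0 CPM on PLX5622. It had 30.7 and 21.1 against 10.6 and 14.2 CPM in MSA corpus callosum and 12.2, 12.6 and 17.4 against 5.02 and 10.9 CPM in MSA striatum. Without the libraries of low assigned share the Glb1 change was -0.60. That setting leaves 1 PLX5622 library each in MSA corpus callosum and MSA striatum, so no call is given for it. The Glb1 call was lost without MSA cortex PLX5622 2 or MSA striatum placebo 3. It was also lost without MSA corpus callosum placebo 1 or PLX5622 1, or MSA striatum PLX5622 2, each of which leaves 1 library in its group. Naglu had 15.2, 13.8 and 16.9 against 12.2, 12.3 and 8.38 CPM in MSA cortex, 24.1 and 21.5 against 10.9 and 11.0 CPM in corpus callosum, and 14.3, 20.2 and 15.8 against 16.6 and 8.82 CPM in striatum, where the diets overlapped. It was lost without any 1 of 7 libraries (MSA cortex placebo 3, corpus callosum placebo 1 or 2 or PLX5622 1 or 3, striatum placebo 2 or PLX5622 3), at adjusted p between 0.0527 and 0.107, and with no low-count filter (0.0771). The interactions, -0.88 ± 0.27 for Glb1 and -0.77 ± 0.24 for Naglu, had adjusted p of 0.245 and 0.242.

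The remaining sphingolipid genes were not called. Psap had a log2 change of -0.66 ± 0.25 in MSA mice (adjusted p = 0.16) and 0.06 ± 0.25 in controls, Smpd1 -0.35 ± 0.17 and 0.08 ± 0.17, Hexa -0.31 ± 0.14 and -0.43 ± 0.14, and Arsa (arylsulfatase A) -0.34 ± 0.17 and 0.20 ± 0.17. Galc, the galactosylceramidase of myelin lipid breakdown, had 0.01 ± 0.13 in controls and an adjusted p of 0.991 in MSA mice, and its libraries in cortex spanned 21.5 to 36.8 CPM. Gla, Asah1 (acid ceramidase) and Neu1 lay between -0.30 and 0.12 in both genotypes. Of the glycosaminoglycan genes, Arsb had -0.79 ± 0.28 in MSA mice (adjusted p = 0.125) and 0.00 ± 0.27 in controls. Idua, α-L-iduronidase, had 0.45 ± 0.21 and 0.38 ± 0.21, the highest change of the 33 in both. Gusb, Ids and Sgsh lay between -0.38 and 0.21.

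Of the lipid handling genes, the cholesterol transporter Npc1 had -0.58 ± 0.23 in MSA mice (adjusted p = 0.177) and 0.01 ± 0.23 in controls, its soluble partner Npc2 0.01 ± 0.20 and -0.37 ± 0.20, and Lipa, the acid lipase, -0.49 ± 0.16 (adjusted p = 0.0938) and -0.18 ± 0.15. Grn was lower in MSA mice by 0.92 ± 0.27 in the fit without passing the threshold (adjusted p = 0.0734). Its values in MSA striatum were 58.4, 73.6 and 62.4 CPM on placebo and 25.1 and 40.3 CPM on PLX5622, apart, while MSA cortex overlapped at 63.5, 58.4 and 67.0 against 44.2, 25.0 and 68.9 CPM. The peptidase Tpp1 had -0.31 ± 0.14 and the palmitoyl thioesterase Ppt1 0.02 ± 0.15 in MSA mice. Tfeb stood at 9.49, 7.38 and 4.31 CPM in control cortex on placebo and 4.59, 6.07 and 6.98 CPM on PLX5622, which overlap, and its region means were -0.09 ± 0.20 in controls and -0.33 ± 0.20 in MSA mice.

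MSA mice were compared with controls on placebo to ask what the transgene alone goes with. In each region 0 members passed. In cortex edgeR called 0% of all genes and DESeq2 called 0 members. There 1 member and 3.52% of all genes were under an unadjusted p of 0.05. In corpus callosum 0.321% of all genes are called, and DESeq2 called 2 members, Naglu and Man2b1. There 6 members, all higher, and 8.53% of all genes were under an unadjusted p of 0.05. In striatum 0.0336% are called, and DESeq2 called 0 members. There 2 members and 3.75% of all genes were under an unadjusted p of 0.05. On the mean of the regions Cd68 was higher by 0.87 ± 0.19 (log2, adjusted p = 0.0344), the 1 member called where 0.504% of all genes are called. It was higher in the mean of every region, at 14.3 against 8.14 CPM in cortex, 22.0 against 9.39 CPM in corpus callosum and 18.0 against 12.4 CPM in striatum, and the genotypes did not overlap in any of them. This call was kept without 5 of the 16 libraries. Without any 1 of the other 11 (control cortex 2 or 3, MSA cortex 2 or 3, control corpus callosum 3, MSA corpus callosum 1 or 2, control striatum 1 or 2, MSA striatum 2 or 3) the adjusted p lay between 0.055 and 0.174 with log2 differences of 0.79 to 0.92, and it was 0.0517 with no low-count filter. The next members were Naglu (0.62 ± 0.16, adjusted p = 0.0861) and Man2b1 (0.73 ± 0.20, 0.115).

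In corpus callosum 28 of the 33 differences were above 0, with a median of 0.39 (all genes 0.01). Man2b1 there had 48.7, 32.8 and 29.6 CPM in controls and 77.4 and 85.1 CPM in MSA mice (1.15 ± 0.24, adjusted p = 0.121). Naglu had 9.29, 13.9 and 9.29 against 24.1 and 21.5 CPM (1.10 ± 0.29, adjusted p = 0.254). Both were apart without passing the threshold. Separation was common here: of all 33 members, 18 were apart with MSA higher, Man2b1 and Naglu among them. A further 1 was apart with MSA lower, and 14 overlapped. The share over all genes was not counted. Markers of the choroid plexus also stood high in these MSA libraries, where 10 markers summed to 3218 and 8293 CPM. Their sum was 255 to 351 CPM in control placebo, 1408 to 1511 CPM in control PLX5622 and 412 to 466 CPM in MSA PLX5622 libraries. None of the 10 was at 0 in any of these libraries. In MSA striatum on placebo their sum ran from 68.6 to 3939 CPM. Microglial markers summed to 778 to 973 CPM in MSA and 563 to 639 CPM in control corpus callosum on placebo. The part of either list in the differences was not tested.

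Sorted microglia allow the genotypes to be compared in 1 sorted population, which also held transcripts of other cell types. The 10 choroid plexus markers summed to 535 to 1207 CPM in control and 867 to 1653 CPM in MSA sorted libraries. A list of 7 markers of border-associated macrophages summed to 872 to 916 and 742 to 924 CPM. Their part in the differences was not tested. No member passed: edgeR called 0 of 33 where 0.61% of all genes are called, and DESeq2 called 1, Asah1. Under an unadjusted edgeR p of 0.05 were 9 members, 6 higher and 3 lower, and 10.7% of all genes. Without the low-count filter Galc and Asah1 were called. The median difference was 0.02, with 18 above 0 and 15 below. Asah1, acid ceramidase, had 386, 371 and 369 CPM in controls and 484, 486 and 435 CPM in MSA microglia (log2 difference 0.28 ± 0.07, adjusted p = 0.129). Galc had 43.9, 41.1 and 45.3 against 67.6, 56.0 and 53.9 CPM (0.40 ± 0.10, 0.142), and Gla 4.55, 7.70 and 5.53 against 10.8, 8.26 and 9.75 CPM (0.65 ± 0.22, 0.315). The genotypes did not overlap for these 3 genes of sphingolipid breakdown, which were taken for their small p-values or large differences. The 9 genes of that role had a median difference of 0.08 with 0 called. Of all 33 members, 11 were apart with MSA higher, these 3 among them, 2 with MSA lower, and 20 overlapped. The share over all genes was not counted.

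Of the membrane proteins in the sorted cells, Cd63 had 48.9, 54.1 and 53.3 CPM in controls and 60.6, 64.0 and 80.5 CPM in MSA microglia, which did not overlap (0.34 ± 0.10, adjusted p = 0.223). Laptm5 had 4861, 4596 and 4628 CPM in controls and 4484, 4234 and 3981 CPM in MSA microglia (-0.19 ± 0.07, adjusted p = 0.347). Lamp1 had 1292, 1302 and 1226 against 1298, 1284 and 1319 CPM, and Cd68 had 613, 667 and 682 against 682, 742 and 629 CPM (0.02 ± 0.08, 0.949). Lamp1 and Cd68 overlapped, and the lowest control Laptm5 lay just above the highest MSA value. Arsb had 2153, 3187 and 2017 CPM in controls and 2195, 2039 and 622 CPM in MSA microglia, so 1 MSA library, replicate 3, stood far below the other 5 (-0.64 in the fit, not called). Tfeb had 86.5, 89.9 and 81.0 against 81.4, 84.6 and 88.6 CPM. A list of 11 markers of disease-associated microglia summed to 962 to 1426 CPM in controls and 2898 to 3176 CPM in MSA microglia, ranges that did not overlap.

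**Figure D3:**
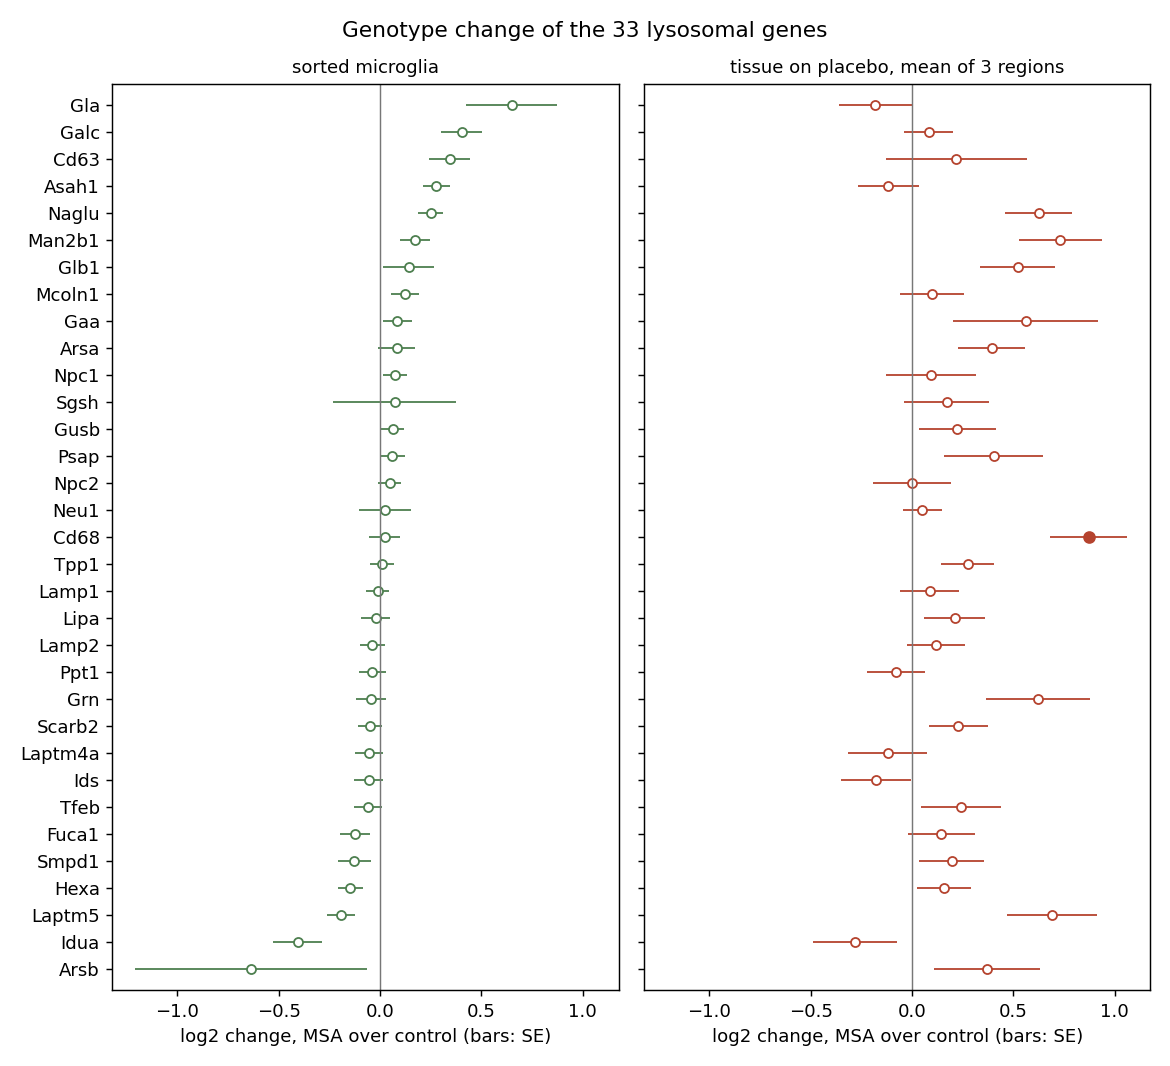
Log2 difference of MSA over control mice for each of the 33 genes, with SE bars, in sorted microglia (left) and on the mean of the 3 tissue regions on placebo (right); filled points passed an adjusted p of 0.05. In microglia the points run from -0.64 (Arsb) to 0.65 (Gla) and none is filled, and in tissue Cd68 at 0.87 is filled.

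Between regions of placebo controls few members differed. Tfeb was higher in corpus callosum than in cortex by 1.49 ± 0.32 (log2, adjusted p = 0.00704), at 31.4, 15.6 and 17.8 CPM against 9.49, 7.38 and 4.31 CPM. It was the 1 member called where 2.94% of all genes are called, and the call was lost without control corpus callosum 1 (1.06, adjusted p = 0.159). Oligodendrocyte markers summed to 17280 to 32247 CPM in control corpus callosum and 2356 to 3788 CPM in control cortex on placebo. Their part in the Tfeb difference was not tested. In striatum against cortex 2 of 33 were called, both lower, where 12.9% of all genes are called: Neu1 by 0.76 ± 0.18 (adjusted p = 0.0044) and Ids by 1.17 ± 0.33 (adjusted p = 0.0172). Neu1 had 52.1, 61.6 and 78.1 CPM in cortex and 38.4 and 38.6 CPM in striatum, and Ids 761, 917 and 1523 against 536 and 431 CPM. The Ids call was lost without control cortex 3, the library with the 1523 CPM and of low assigned share (-0.83, adjusted p = 0.0946), and without control striatum 1 (0.079) or 2 (0.213). Neu1 was lost without control striatum 1 (0.0665) or 2 (0.0603).

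The microglial marker sum gives an arithmetic yardstick for these values. Divided by its level in sorted microglia of the same genotype, it came to 1.05% of counts in control cortex on placebo and 0.04% on PLX5622, and to 1.27% and 0.382% in MSA cortex. In corpus callosum it was 1.05% and 0.0778% in controls and 1.62% and 0.472% in MSA mice, and in striatum 0.898% and 0.0553% in controls and 1.28% and 0.321% in MSA mice. This share multiplied by the microglial CPM of a gene was set beside the observed control fall, both as percent of the placebo level of control cortex. For Laptm5 the product was 123% and the fall 98.8%, and for Cd68 84.6% and 62.6%. For Man2b1 it was 51.1% and the fall 12.3%, for Grn 49.7% and 20.7%, and for Gusb 20.2% and 9.92%. Over all members, 20 of 33 were lower on PLX5622 in control cortex, and the product was at least the fall for 6 of them and below it for 14, among them Hexa (18.1% against 34.3%), Npc2 (7.35% against 37.3%), Cd63 (2.38% against 30.4%) and Ids (0.179% against 25.7%). In corpus callosum the product was at least the fall for 10 of 21 and in striatum for 7 of 22. The genes named were chosen after their values were seen. In control cortex, for Arsb the product was 24.8% and for Gaa 0.98%, and neither level was lower on PLX5622. In control striatum the Laptm5 product was 87.7% and its fall 98.8%. These values come from a calculation that takes sorted cells and frozen tissue as comparable, which was not tested. In control striatum the Cd68 product was 47.4% and its fall 25.7%, and in control corpus callosum 73.3% and 65.6%.

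Across the 33 genes, those with more excess in microglia tended to have lower values under the drug. The log2 CPM ratio of control microglia over placebo control striatum, which shares no library with the cortex comparisons, had a Spearman correlation of -0.45 with the control cortex change (Pearson -0.48) and -0.40 with the MSA cortex change (-0.58). Without Laptm5 the Spearman values were -0.40 and -0.34 over 32 genes. They were -0.336 and -0.279 over 31 genes without Laptm5 and Cd68. This is a description across genes, which are not replicates, and the genes within each axis share libraries and depth.

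**Figure D4:**
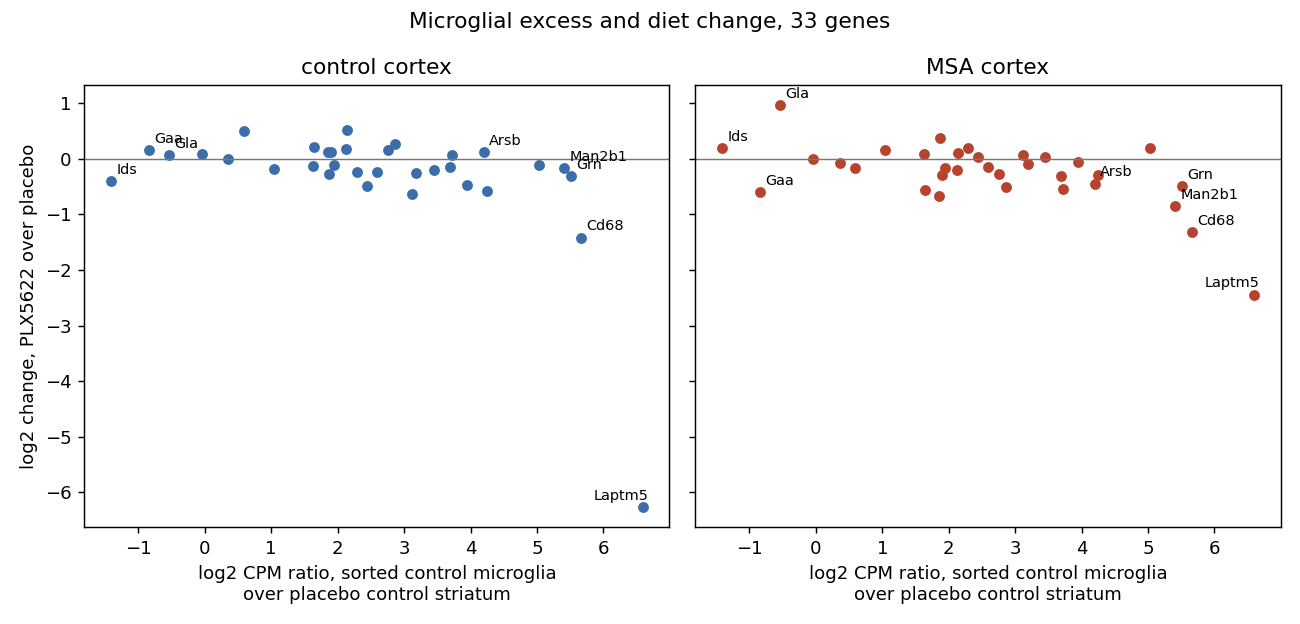
Log2 change under PLX5622 in control cortex (left) and MSA cortex (right) against the log2 CPM ratio of sorted control microglia over placebo control striatum, 1 point per gene, with some genes named. Laptm5 and Cd68 lie at the lower right, at -6.26 and -1.42 in controls, and the 4 genes with ratios below 0 lie at -0.40 (Ids), 0.16 (Gaa), 0.07 (Gla) and 0.09 (Smpd1) in controls and at 0.18, -0.61, 0.97 and 0.00 in MSA mice.

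The share of reads assigned to genes moved with these genes as well. In the 6 libraries of low assigned share, 10 members were lower than the mean of their group's other libraries in 6 of 6: Gaa (median log2 ratio -1.02), Psap (-0.93), Grn (-0.86), Laptm5 (-0.81), Arsb (-0.74), Glb1 (-0.61), Smpd1 (-0.57), Scarb2 (-0.52), Tfeb (-0.48) and Lamp1 (-0.41). Idua was higher in 6 of 6 (0.44). The same count was not made over all genes, so it cannot be read as particular to these genes. In control cortex on placebo, for example, Gaa was at 462 and 252 CPM and at 88.0 CPM in replicate 3. Man2b1, Cd68 and Naglu, among the genes called in MSA mice, had medians between -0.14 and -0.02 with libraries on both sides. Without these 6 libraries 1 member was called in striatum against cortex (Neu1). That setting leaves 1 PLX5622 library each in control corpus callosum, MSA corpus callosum and MSA striatum. No members are counted as called for comparisons that use those groups.

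**Figure D5:**
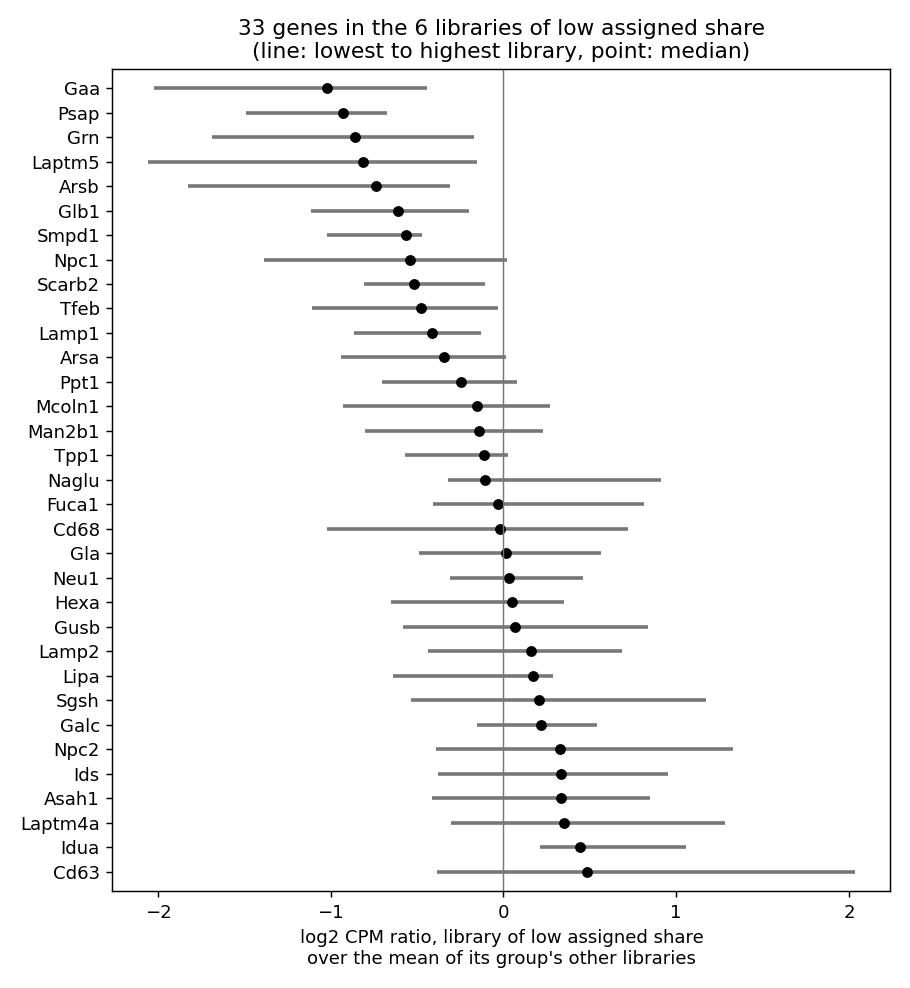
Log2 CPM ratio of each of the 6 libraries of low assigned share over the mean of the other libraries of its group, for the 33 genes; lines run from the lowest to the highest library and points are medians. For 10 genes from Gaa to Lamp1 the whole line lies below 0, and for Idua above 0.

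Other lysosomal genes were read from 5 lists. The lysosomal proton pump (v-ATPase, 19 genes, 18 tested) had 0 genes called in any diet or genotype comparison, and in control microglia 9 of 18 were lower than in cortex and 2 higher. Of 24 further hydrolases and cofactors, 23 were tested on the mean of the regions. In MSA mice 5 were called, all lower, where 2.31% of all genes are called. Among them were Lgmn, an asparaginyl endopeptidase (fell by 0.88 ± 0.19, adjusted p = 0.0162), and Manba, the β-mannosidase (fell by 1.04 ± 0.25, adjusted p = 0.0254). The median of these 23 was -0.35 in MSA mice. In control mice it was 0.06 and 1 was called, lower, where 1.38% of all genes are called. For the interaction 0 were called, so the genotypes were not shown to differ. Of 11 cathepsins, 4 were lower in each genotype on the mean of the regions, with Ctss the furthest (fell by 7.56 ± 0.45 in controls and by 1.80 ± 0.29 in MSA mice), and Ctsc was higher in MSA mice on placebo (1.32 ± 0.27, adjusted p = 0.0226). Of 21 further membrane and transport proteins, Slc11a1 fell in control cortex (by 5.18 ± 0.98, adjusted p = 0.0327) and Tmem106b was higher in MSA mice on the drug (0.55 ± 0.14, adjusted p = 0.0378). Of 18 MiT/TFE factors and nutrient signalling genes, 17 were tested and 0 were called under the drug or between genotypes in tissue or microglia.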

How the data were processed

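Poly(A) RNA libraries were analysed from 2 deposited tables. The gene counts were made by the authors with STAR and HOMER on genome build mm10, per the submitters' processing notes, which also name DESeq2, and the counts are not normalized. The TPM values are the authors' too, as deposited, and sum to 453451 to 559022 over the listed genes of a library. They were used only to compare levels between genes. No source used here gives a strand setting for the counting. Npc1, Glb1, Sgsh, Scarb2, Ppt1, Arsa, Arsb and Idua overlap other genes, so their counts may hold reads of those.

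CPM are counts per 1000000 counts assigned to genes. Tests were edgeR 4.0.16 robust quasi-likelihood F tests (R 4.3.3, limma 3.58.1) with TMM factors and genes kept by filterByExpr at a minimum count of 10, fitted over all genes with Benjamini-Hochberg adjustment and a threshold of 0.05. The SE is the log2 change over the root of F. Each region was fitted over its groups, and the mean of 3 regions in a fit over all 30 tissue libraries. DESeq2 1.42.0, RLE size factors, no low-count filter, 2 groups alone, a replicate block, libraries left out and the assigned share as a covariate were alternatives. The scripts were tested on simulated data. Libraries were grouped by title. The 33 genes, the other gene lists and the tests were chosen with earlier results of these data known. Every member past the threshold was named, or, above 10, 6 of smallest p per direction, a few membrane proteins, Grn, Psap, Npc2 and Tfeb always, and up to 3 genes per other list. Values given for further members complete the account of all 33 and were chosen after they were seen. The result of 1 gene of these other lists is not reported here.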

Additional observations from a re-analysis of the deposited data

Results flagged for a closer look

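The effect of PLX5622 on Laptm5 differed between the genotypes by a test of the difference itself. The log2 interaction, the change in MSA mice minus that in controls, was 3.82 in cortex, 3.94 in striatum and 3.25 on the mean of the 3 regions. In corpus callosum it was 1.97 and did not pass (adjusted p = 0.933, edgeR). Groups of 2 or 3 libraries are too small for the check for single outlying samples.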

How the results depend on the processing

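None of the 49 calls of single members reversed direction under an alternative. Of the 611 member values that were not called, 252 changed sign under at least 1 alternative, the largest of them 1.26 on the log2 scale. Counts of members called moved as follows. DESeq2 called 2 in control cortex, MSA corpus callosum and MSA striatum under the drug, 2 for MSA against control in corpus callosum, 3 for that contrast on the mean of the regions, 2 for corpus callosum against cortex and 1 for MSA against control microglia. With no low-count filter the genotype contrast had 1 in corpus callosum, 0 on the mean of the regions and 2 in sorted microglia. With 2 groups alone MSA corpus callosum had 1 under the drug and 1 against control. Without the libraries of low assigned share there was 1 for striatum against cortex. That setting leaves 1 PLX5622 library each in control corpus callosum, MSA corpus callosum and MSA striatum, so no counts are given there. The assigned share as a covariate, chosen after seeing the data, gave 1, 1 and 1 in corpus callosum (drug in MSA, genotype, interaction), 0 in MSA striatum and, against cortex, 4 for corpus callosum and 6 for striatum. Leaving out 1 library gave 0 to 1 in MSA cortex, for the interactions in cortex and corpus callosum and for genotype in microglia, 0 to 3 in MSA striatum, 3 to 6 in MSA mice on the mean of the regions, 0 to 2 for genotype on that mean and for corpus callosum against cortex, and 0 to 4 for striatum against cortex. Causes of these moves were not tested.

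The labels state no pairing, and same-numbered libraries correlated above 0.1 in 6 of 18 pairs in cortex, 1 of 10 in corpus callosum, 5 of 10 in striatum and 1 of 3 in microglia, so the numbers were not taken to pair samples. With the replicate block 0 members were called in MSA cortex, the cortex interaction and control corpus callosum, 6 in MSA striatum and 2 for genotype on the mean of the regions. Over all genes the count in MSA striatum was 11, 1349 with the replicate block, 268 with DESeq2 and 89 with no filter. DESeq2 called 128 against 71 genes in control cortex, 40 against 8 in MSA cortex, 164 against 73 in control corpus callosum, 137 against 11 in MSA corpus callosum, 805 against 371 in MSA mice and 251 against 81 for genotype on the mean of the regions. Groups of 2 or 3 libraries limit all tests, and Laptm5 at 1 to 7 counts in control cortex and striatum on PLX5622 sets its fold loosely.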
